A study of Caenorhabditis elegans with 2 samples.

Results

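The genes described here are the long non-coding and antisense RNA genes of Caenorhabditis elegans: all genes with the biotype lincRNA, lncRNA, antisense or antisense_RNA in the Ensembl annotation of the WBcel235 genome (the same sequence as build ce11). The annotation held 294 of them among 46890 genes on the nuclear chromosomes, 194 with the biotype lincRNA (long intergenic non-coding RNA) and 100 with the biotype antisense_RNA. No gene carried the biotype names lncRNA or antisense. The measurement was chromatin immunoprecipitation followed by sequencing (ChIP-seq) with an antibody against AMA-1, the largest subunit of RNA polymerase II, in whole L4 larvae, the last larval stage. Both samples were wild-type N2 worms without a transgene or treatment named, with sexes labelled as pooled male and female, with fragments of 150 to 350 bp as the labels' size range, and they are labelled as biological replicates 1 and 2 of 1 group. The age is labelled unknown, and the control library named in the labels was not analysed here.

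RNA polymerase II transcribes protein-coding genes and most long non-coding RNAs, and its ChIP-seq signal gathers near starts, within bodies and past the ends of the genes it transcribes. Long non-coding RNAs carry no long open reading frame; lincRNAs are annotated between protein-coding genes, and antisense RNAs on the strand opposite to another gene. A few worm members have been studied one by one, such as lep-5, an RNA that acts in the timing of the larval to adult transition, whereas most are known only as annotated transcripts. ChIP-seq carries no strand, so a member and a gene that overlaps it on the other strand cannot be told apart by their summits. Whole animals were used, so polymerase on a gene in few cells and a little polymerase in all cells cannot be told apart either.

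Each member was described by the summits (the highest point of a peak) within 500 bp of its start, in 4 lists. The pooled list and each replicate's own list hold 30000 peaks each, and the IDR set holds 2082 peaks kept by the irreproducible discovery rate, a measure of agreement between replicates. All 2082 IDR peaks are also the 2082 strongest pooled peaks. Each peak carries the authors' own signal value, which ran from 8.18 to 897.6 (median 15.8) in the pooled list, from 5.34 to 589.7 (median 10.6) in replicate 1 and from 3.32 to 328.4 (median 7.52) in replicate 2. The lists are on different scales, so members are compared by rank within a list (rank 1 is the strongest). A gene with no summit in a list may have signal too weak for the peaks kept, or a peak outside the window. The read depth behind the signals is unknown.

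Members of the set are small genes that are often close to other genes. Their spans run from 89 to 6035 bp with a median of 719.5 bp, 284 of the 294 have 1 annotated transcript, and 90 have 1 exon. A protein-coding gene lies over 105 of them on the opposite strand, over 22 on the same strand and over 8 on both strands, and 159 overlap no protein-coding gene. The antisense members account for 86 of the 105 and the lincRNAs for 152 of the 159. A subset of 104 members overlaps no protein-coding gene and starts over 1000 bp from every protein-coding start and end. These are called the clear members.

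The sequences of 6 members are given because, among the strongest members described later that lie on chromosomes other than I, their own start is nearest to the pooled summit, which falls at most 200 bp upstream of it, and their window holds no UTR of another gene. For all but linc-72 and linc-78 no protein-coding start or end lies within 1000 bp of the summit. Each run is the 300 bases from 250 before the gene start to 50 from it, read 5′ to 3′ on the gene's strand from the RefSeq WBcel235 genome, with the gene starting after the first 250. The 21 bases centred on the pooled AMA-1 summit are in capitals. The windows are chrII:3303701-3304000 on the minus strand for F39E9.10, chrII:2503753-2504052 on the minus strand for linc-8, chrX:6256528-6256827 on the plus strand for linc-103, chrII:8819292-8819591 on the plus strand for linc-72, chrX:2242865-2243164 on the plus strand for linc-78 and chrIV:5582213-5582512 on the minus strand for linc-50.
F39E9.10: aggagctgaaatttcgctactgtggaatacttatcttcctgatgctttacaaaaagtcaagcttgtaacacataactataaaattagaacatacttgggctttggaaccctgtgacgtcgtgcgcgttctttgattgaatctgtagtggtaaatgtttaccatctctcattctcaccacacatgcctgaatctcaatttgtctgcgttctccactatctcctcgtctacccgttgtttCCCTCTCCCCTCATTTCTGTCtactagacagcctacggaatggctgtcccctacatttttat
linc-8: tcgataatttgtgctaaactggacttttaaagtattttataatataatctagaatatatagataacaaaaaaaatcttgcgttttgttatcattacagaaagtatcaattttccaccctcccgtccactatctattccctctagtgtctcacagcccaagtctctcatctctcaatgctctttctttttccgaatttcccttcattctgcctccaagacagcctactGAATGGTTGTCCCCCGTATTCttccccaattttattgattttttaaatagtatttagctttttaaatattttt
linc-103: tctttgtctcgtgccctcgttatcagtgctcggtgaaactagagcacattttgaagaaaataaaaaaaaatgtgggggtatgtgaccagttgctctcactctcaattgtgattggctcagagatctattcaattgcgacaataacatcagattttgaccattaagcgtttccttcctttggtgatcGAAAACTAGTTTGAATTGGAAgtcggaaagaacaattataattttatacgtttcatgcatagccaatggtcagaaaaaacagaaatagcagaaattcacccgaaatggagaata
linc-72: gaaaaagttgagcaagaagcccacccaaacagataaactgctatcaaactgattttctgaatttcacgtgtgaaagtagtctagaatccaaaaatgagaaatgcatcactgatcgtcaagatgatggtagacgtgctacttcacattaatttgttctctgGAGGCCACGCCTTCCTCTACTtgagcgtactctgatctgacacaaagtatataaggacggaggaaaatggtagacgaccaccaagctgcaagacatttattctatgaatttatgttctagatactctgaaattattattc
linc-78: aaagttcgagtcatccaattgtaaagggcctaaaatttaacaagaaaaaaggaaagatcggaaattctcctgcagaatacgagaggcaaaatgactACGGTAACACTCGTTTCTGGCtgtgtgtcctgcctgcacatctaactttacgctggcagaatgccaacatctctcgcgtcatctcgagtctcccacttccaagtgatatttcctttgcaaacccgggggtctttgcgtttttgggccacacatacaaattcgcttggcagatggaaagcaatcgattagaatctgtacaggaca
linc-50: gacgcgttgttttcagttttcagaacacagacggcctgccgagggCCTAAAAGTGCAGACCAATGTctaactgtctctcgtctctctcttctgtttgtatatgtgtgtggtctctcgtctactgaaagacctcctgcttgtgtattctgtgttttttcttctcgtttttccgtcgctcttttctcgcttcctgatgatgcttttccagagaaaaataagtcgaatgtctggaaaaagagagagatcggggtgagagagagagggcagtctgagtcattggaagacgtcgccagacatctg

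In these windows the summit sits at base 249 for F39E9.10, base 238 for linc-8, base 197 for linc-103, base 171 for linc-72, base 107 for linc-78 and base 56 for linc-50, so the capitals lie closest to the start in the clear members F39E9.10 and linc-8. Their GC content is 42.3%, 33%, 37.3%, 38.7%, 44.7% and 46.7% in the same order. The letters TATAAA, a form of the TATA box, occur on either strand in the windows of F39E9.10, linc-8 and linc-103. The repeat GAGAGA occurs on either strand in those of F39E9.10, linc-8, linc-50 and linc-78. The window of linc-72 holds neither exact run, but it holds TATATAAG upstream of its start. Only exact letters at any place in the window were counted, and other forms of the TATA box were not searched for. Among all 294 member windows TATAAA occurs in 29.9% and GAGAGA in 24.8%, against 37.9% and 21.8% of the 19973 protein-coding windows of the same length. Member windows with a pooled summit hold TATAAA in 27.2% and GAGAGA in 25.9%, and those without one in 31.0% and 24.4%. The median GC content was 36.0% with a summit and 35.3% without, against 34.3% for protein-coding windows.

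Few of the members stood among the strongest polymerase peaks, and more had a weaker peak at the start. An IDR summit lay within 500 bp of the start of 7 of the 294 members, or 2.38% (exact 95% interval from 0.963% to 4.84%), against 3.56% of all genes, 5.57% of protein-coding genes and 4.04% of ncRNA genes. A pooled summit lay at the start of 81 members, or 27.6% (interval from 22.5% to 33.0%), against 22.1%, 30.7% and 28.2%. In replicate 1 the count was 81 members (27.6%, against 21.6% of all and 28.0% of protein-coding genes), and in replicate 2 it was 73 members (24.8%, against 21.6% and 31.9%). The mean share over the replicates was 26.2% ± 1.92 (SD, n = 2). In the pooled list and replicate 1 the share of all genes lay below the members' interval and the protein-coding share within it. The set of all genes includes piRNA genes and pseudogenes. Without these, 2724 of the 9132 other non-coding genes had a pooled summit at the start, and the pooled ncRNA share also lay within the members' interval. In the IDR set and in replicate 2 (upper bound 30.2%) the protein-coding share lay above the interval and the share of all genes within it. Intervals reflect the number of genes only.

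Where a member had a pooled summit, the summit was of moderate rank. The median pooled signal was 17.6 over the 81 members (median rank 12923), against 24.2 (median rank 7785.5) for protein-coding genes with a summit and 22.1 for all such genes. In replicate 1 the medians were 12.9 for members and 14.9 for protein-coding genes, and in replicate 2 they were 9.93 and 12.3. The order of these medians was the same in both replicates. The 7 members in the IDR set had a median signal of 71.8, against 63.4 for protein-coding genes in it. Of the 294 members, 194 had no summit at the start in any list.

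**Figure D1:**
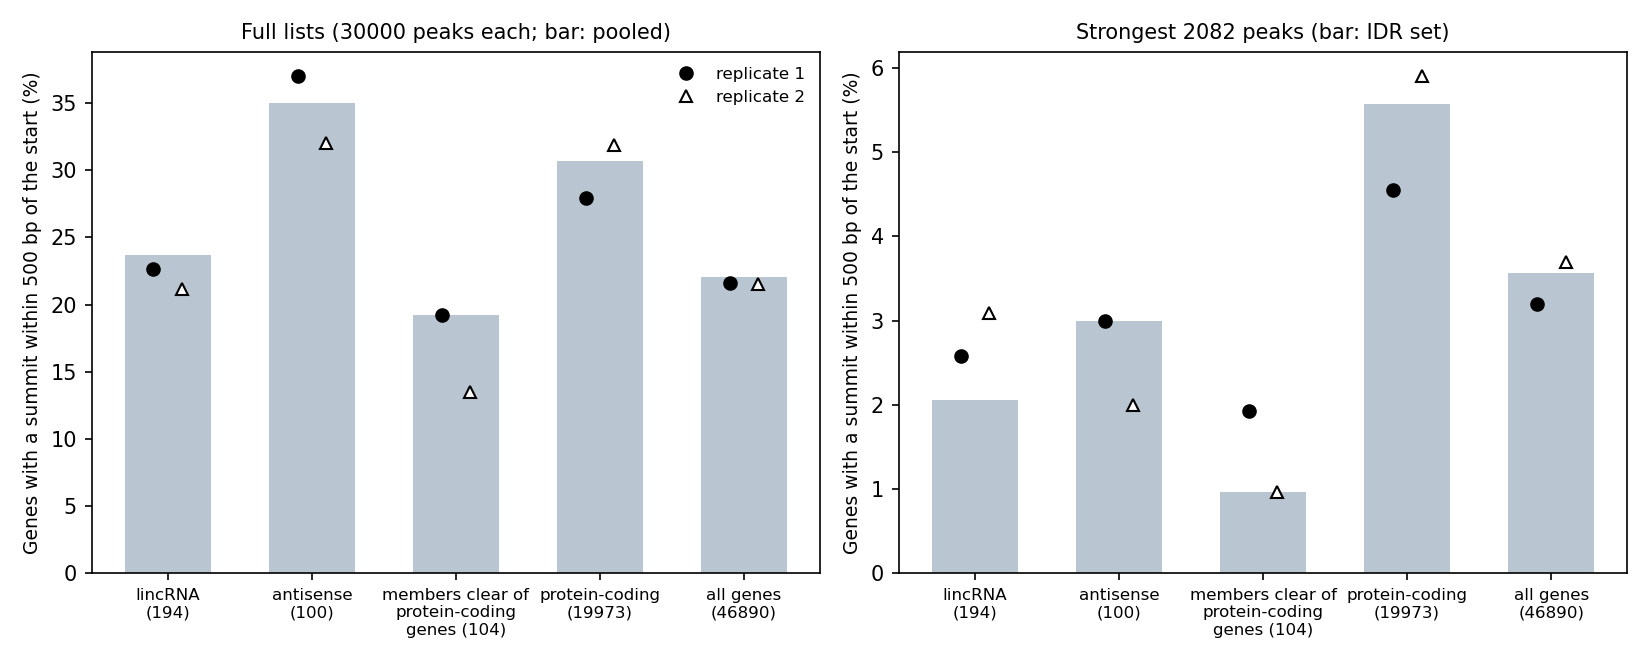
Share of genes with an AMA-1 summit within 500 bp of the start (%), for the full lists of 30000 peaks (left) and the strongest 2082 peaks (right); bars give the pooled list (left) or the IDR set (right), filled circles replicate 1 and open triangles replicate 2, and the number of genes is under each name. The clear members are a subset of both biotypes. Antisense members reach 35% in the pooled list against 23.7% of lincRNAs. In the IDR set lincRNAs stand at 2.06% and antisense members at 3%, against 3.56% of all genes and 5.57% of protein-coding genes. The interval of the antisense share (from 0.623% to 8.52%) holds both of the latter shares.

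The 2 biotypes are given side by side. Among lincRNAs 46 of 194 (23.7%, interval from 17.9% to 30.3%) had a pooled summit, with 22.7% in replicate 1 and 21.1% in replicate 2 (mean 21.9% ± 1.09, SD, n = 2). Among antisense members 35 of 100 (35%, interval from 25.7% to 45.2%) had one, with 37% and 32% (mean 34.5% ± 3.54, SD, n = 2). The antisense share was the higher of the pair in each replicate, while the intervals overlap and the difference was not tested. The median signal of those with a summit was 18.5 for lincRNAs and 17.5 for antisense members. The IDR set held 4 lincRNAs (2.06%) and 3 antisense members (3%).

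Among the 104 clear members, 20 (19.2%, interval from 12.2% to 28.1%) had a pooled summit and 1 (0.962%) an IDR summit, against 20.8% and 2.04% of the 2790 other non-coding genes that are equally clear of protein-coding genes. The share was 19.2% in replicate 1 and 13.5% in replicate 2 (mean 16.3% ± 4.08, SD, n = 2), and 11 of them had a summit in both. By overlap, the pooled share was 23.3% (37 of 159) with no overlapping protein-coding gene, 36.2% (38 of 105) with one on the opposite strand and 27.3% (6 of 22) with one on the same strand. None of the 8 members overlapped on both strands had a pooled summit. The order of the opposite-strand and same-strand members was not the same in all lists: the shares were 37.1% and 27.3% in replicate 1, 33.3% and 36.4% in replicate 2, and 24.8% and 27.3% in both replicates.

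Length showed no steady order. The pooled count was 31 of 98 in the shortest members (under 440 bp), 19 of 98 in those of middle length and 31 of 98 in the longest (1132 bp or more). Position along the chromosome was described in the same way, without a test. With each chromosome cut into 3 equal stretches, 39 of 98 members in the central stretch had a pooled summit (39.8%), against 42 of 196 in the outer stretches (21.4%). Protein-coding genes went the same way, with 37.3% in the central stretch and 26.7% in the outer stretches. By chromosome the pooled share of members was 35.1% on I, 21.1% on II, 28.2% on III, 26.5% on IV, 35.8% on V and 17.8% on X, and that of protein-coding genes was 44.5%, 30.9%, 48.9%, 31.6%, 19.3% and 17.8%. On chromosome V, 24 of the 67 members had a pooled summit (interval from 24.5% to 48.5%). In replicate 1 the share was 38.8% (interval from 27.1% to 51.5%), against 18.8% of protein-coding genes. In replicate 2 it was 26.9% (interval from 16.8% to 39.1%), and the protein-coding share of 19.9% lay within the interval. Shares of all genes were not counted by chromosome. On X, members stood at 20% against 21.7% of protein-coding genes in replicate 1, and at 17.8% against 15.1% in replicate 2. The IDR members lay on I (3), III (2), V (1) and X (1).

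Summits at members were spread over the window. The median distance from the pooled summit to the start was 202 bp, with 20 of 81 within 100 bp, 26 over 100 and up to 250 bp, and 35 farther away. They lay upstream for 40 members and at or downstream of the start for 41. No protein-coding gene covered the summit at 42 members, while at 22 it fell in a protein-coding intron and at 14 in a coding exon.

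Counted in bins of 200 bp, lincRNA summits were most frequent just before the start: the bin that ends 1 bp upstream held 20 summits in the pooled list (103 per 1000 genes), 19 in replicate 1 and 19 in replicate 2. The bin from the start onward held 14, 15 and 8. Antisense members had 6, 6 and 4 in the bin before the start and 16, 10 and 18 in the bin after it. For antisense members the bin after the start was the highest in the pooled list (160 per 1000 genes) and in replicate 2, but in replicate 1 the bin from 600 to 401 bp upstream and that from 800 to 999 bp downstream held more, with 14 each. In protein-coding genes the bin after the start was the highest in all 3 lists (119 per 1000 genes in the pooled list, against 72.2 for lincRNAs). Their bin just before the start held 102 per 1000 genes in the pooled list, near the 103 of lincRNAs. In that bin the replicates gave 88.0 and 108 for protein-coding genes, and 97.9 in each for lincRNAs.

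**Figure D2:**
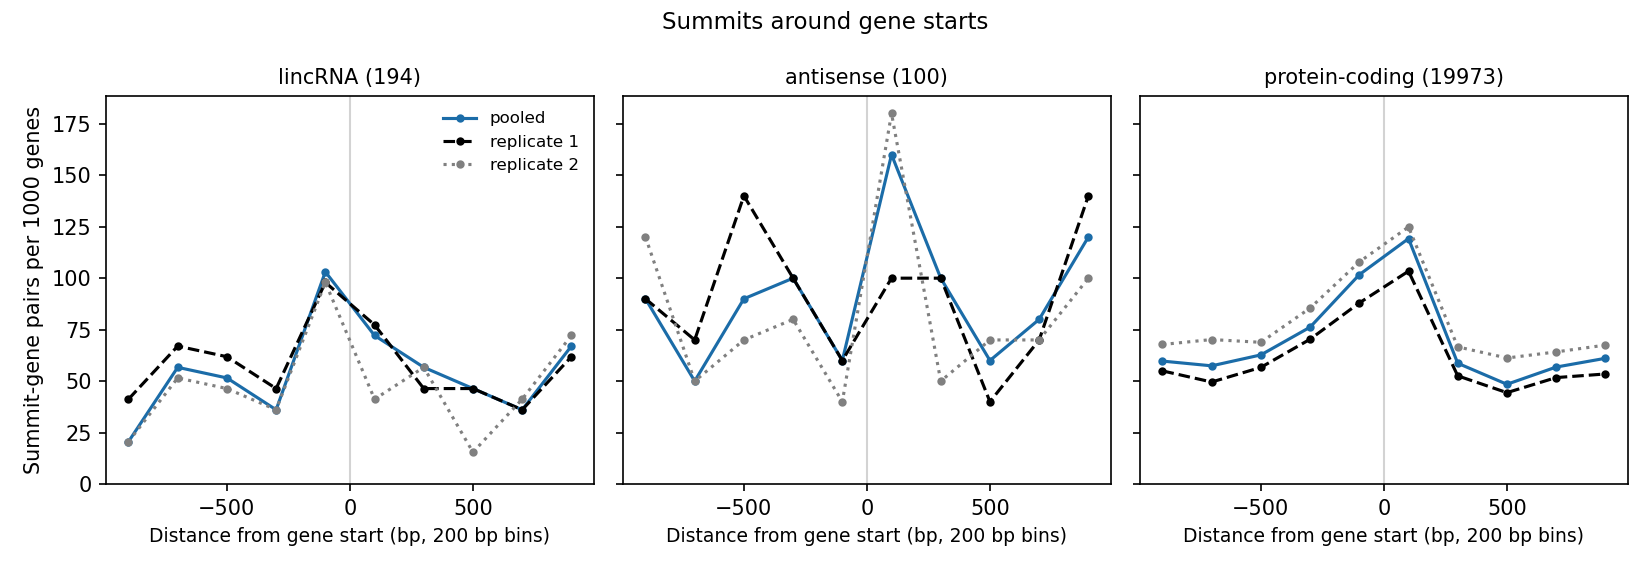
AMA-1 summits per 1000 genes (vertical axis) in 200 bp bins from 1000 bp upstream to 1000 bp downstream of the gene start (horizontal axis, bp), for 194 lincRNAs, 100 antisense members and 19973 protein-coding genes; lines are the pooled list and each replicate. The lincRNA lines are highest in the bin just before the start, where the pooled line reaches 103 and the pooled protein-coding line 102. The protein-coding lines are highest in the bin just after it, where the pooled line reaches 119.

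For most members with a summit, the member's own start was nearer to it than any protein-coding start or end. In the IDR set this held for 5 of 7 members, against 80.5% of the 461 other non-coding genes with an IDR summit at the start. In the pooled list it held for 64 of 81 (79.0%), against 86.0% of 2724 such genes, with a protein-coding start nearer at 8 and a protein-coding end nearer at 9. It held for 37 of 46 lincRNAs (80.4%) and 27 of 35 antisense members (77.1%), and for 75.3% of members in each replicate. The IDR and pooled shares are under the background of other non-coding genes, which was not counted in the replicate lists. A window around the member's start also favours that start. Of the 64 members, 20 were clear members, for which the definition fixes this, 39 had a summit in both replicates, 19 had the summit within 100 bp and 29 had it inside a protein-coding gene. At 2 of the 64, the start of another non-coding gene was nearer still.

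**Figure D3:**
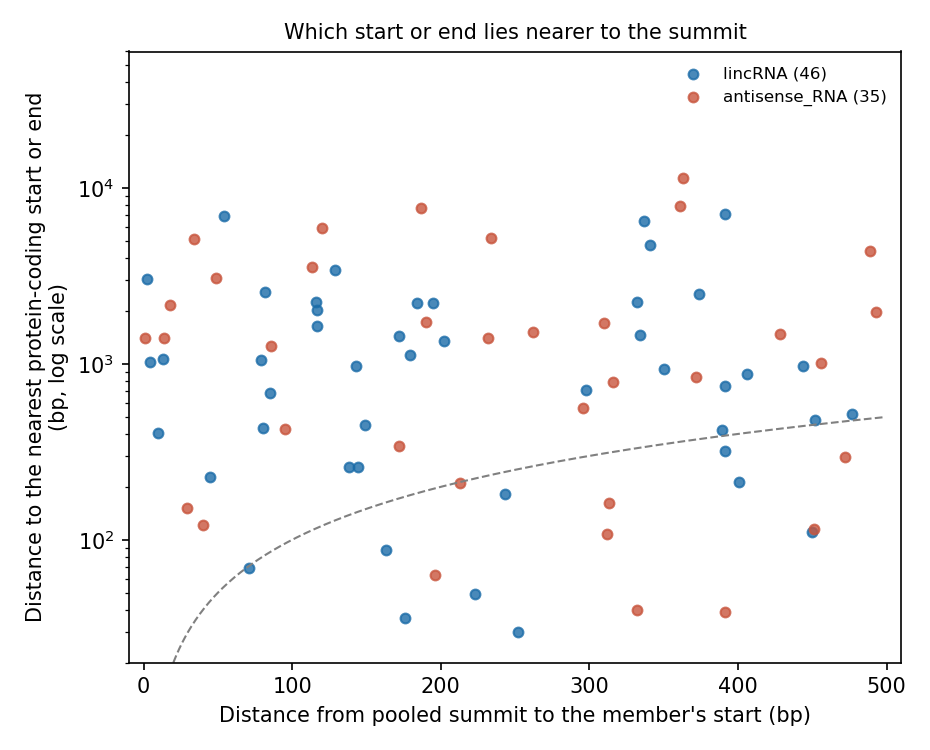
Distance from the pooled summit to the start of the member (horizontal axis, bp) against the distance from the same summit to the nearest protein-coding start or end (vertical axis, bp, log scale) for the 81 members with a pooled summit, 46 lincRNAs and 35 antisense members; the dashed line marks equal distances. The 64 points above the line are members whose own start is nearer.

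The 7 members in the IDR set were linc-2, linc-1, linc-78, linc-91, anr-36, K11D9.5 and F48C1.15. Of these only linc-91 was a clear member, and the others sat beside or inside protein-coding genes.

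The member linc-91 (WBGene00219746, chrI:4699610-4702866, plus strand, 3257 bp in a single exon) had the closest summit to its start among these 7. The signal at linc-91 was 71.8 in the pooled list (rank 729), 43.4 in replicate 1 (rank 897) and 36.2 in replicate 2 (rank 658), and the summit lay 4 bp upstream, 72 bp upstream and 18 bp downstream of the start. Both replicates thus placed linc-91 high, with a rank percentile of 97.4 ± 0.563 (SD, n = 2; 100 is the strongest peak). The nearest protein-coding start, 1031 bp from the summit, belonged to chd-7, a chromatin remodeller of the CHD family. A second IDR summit fell inside its exon, 1831 bp from the start (signal 56.9, rank 1310).

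Within 500 bp of a member's start, the highest signal was that at linc-2 (WBGene00219720, chrIII:5024881-5025007, plus strand, 127 bp), a short gene overlapped on the same strand by pcf-11, which encodes a factor of messenger RNA 3′ end formation. Its strongest summit had a signal of 114.7 in the pooled list (rank 207), 80.7 in replicate 1 (rank 181) and 68.7 in replicate 2 (rank 113). These are different peaks in the replicates: the summit lay 389 bp upstream in the pooled list, 403 bp downstream in replicate 1 and 377 bp upstream in replicate 2. The window around linc-2 held 3 IDR summits, at 389 bp upstream (rank 207), 188 bp upstream (rank 811) and 477 bp downstream (rank 408). Within 100 bp of the strongest, replicate 1 had a peak of rank 880 and replicate 2 of rank 113, and within 100 bp of the downstream one rank 181 and rank 3050. The strongest was 422 bp from the pcf-11 start and 428 bp from the end of R144.13, so the start of linc-2 was the nearest by a narrow margin, and the summit downstream fell in the 5′ UTR of pcf-11.

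A ribosomal protein gene adjoined each of linc-1 and linc-78. The member linc-1 (WBGene00194659, chrI:13652524-13652727, plus strand, 204 bp) had a signal of 82.8 in the pooled list (rank 497), 49.2 in replicate 1 (rank 646) and 41.3 in replicate 2 (rank 469). Its summit lay 243 bp downstream of the start and 40 bp past its own end, and the end of rpl-31, a gene for a protein of the large ribosomal subunit, was nearer at 182 bp. For linc-78 (WBGene00219643, chrX:2243115-2243239, plus strand, 125 bp) the signal was 78.0 in the pooled list (rank 576) and 63.0 in replicate 1 (rank 343), with the summit 144 bp and 190 bp upstream. Replicate 2 had no summit at the start of linc-78, and its nearest summit lay 2806 bp away at rank 14048. Only 1 replicate thus carries the linc-78 peak, although it is in the IDR set. The start of the ncRNA gene AH9.7 was as near to that summit, at 144 bp, while the start of rpl-11.2, another large-subunit protein gene, was 353 bp away and the end of AH9.1 260 bp.

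The other IDR members carried the biotype antisense_RNA, although the only protein-coding overlap of anr-36 was on its own strand. At anr-36 (WBGene00219659, chrV:7854250-7854959, minus strand, 710 bp) the signal was 62.2 in the pooled list (rank 1069), 44.1 in replicate 1 (rank 862) and 28.1 in replicate 2 (rank 1266). The summit was 196 bp inside the gene in the pooled list and 197 bp inside in replicate 1, with no replicate 2 summit within 100 bp of it, and the start of C37C3.9 was nearer, 63 bp from the pooled summit. The value of replicate 2 belongs to another peak at the start of anr-36, with its summit 32 bp inside the gene. The pooled list had a summit of rank 2271 there, 5 bp upstream, and replicate 1 one of rank 3380, 2 bp upstream. At F48C1.15 (WBGene00236798, chrI:5315917-5316885, plus strand, 969 bp), which lies antisense in let-526, a gene for a subunit of the SWI/SNF chromatin remodelling complex, the signal was 60.8 in the pooled list (rank 1124), 41.7 in replicate 1 (rank 991) and 22.6 in replicate 2 (rank 2205). That summit lay 456 bp inside F48C1.15 and in an intron of let-526, and the start of the ncRNA gene F48C1.13 was nearer at 323 bp.

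The remaining IDR member was K11D9.5 (WBGene00194856, chrIII:10814376-10815128, plus strand, 753 bp), antisense in sca-1, the gene of the calcium pump of the sarcoplasmic and endoplasmic reticulum. The strongest summit within 500 bp had a signal of 61.0 in the pooled list (rank 1122), 7.28 in replicate 1 (rank 23106) and 16.4 in replicate 2 (rank 4404). The pooled summit, 493 bp upstream of K11D9.5 in a coding exon of sca-1, lay at the edge of the window, and within 100 bp of it replicate 1 had a peak of rank 829 and replicate 2 a peak of rank 4061, both outside the window. The low ranks at K11D9.5 are therefore those of other, smaller peaks nearer its start.

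**Figure D4:**
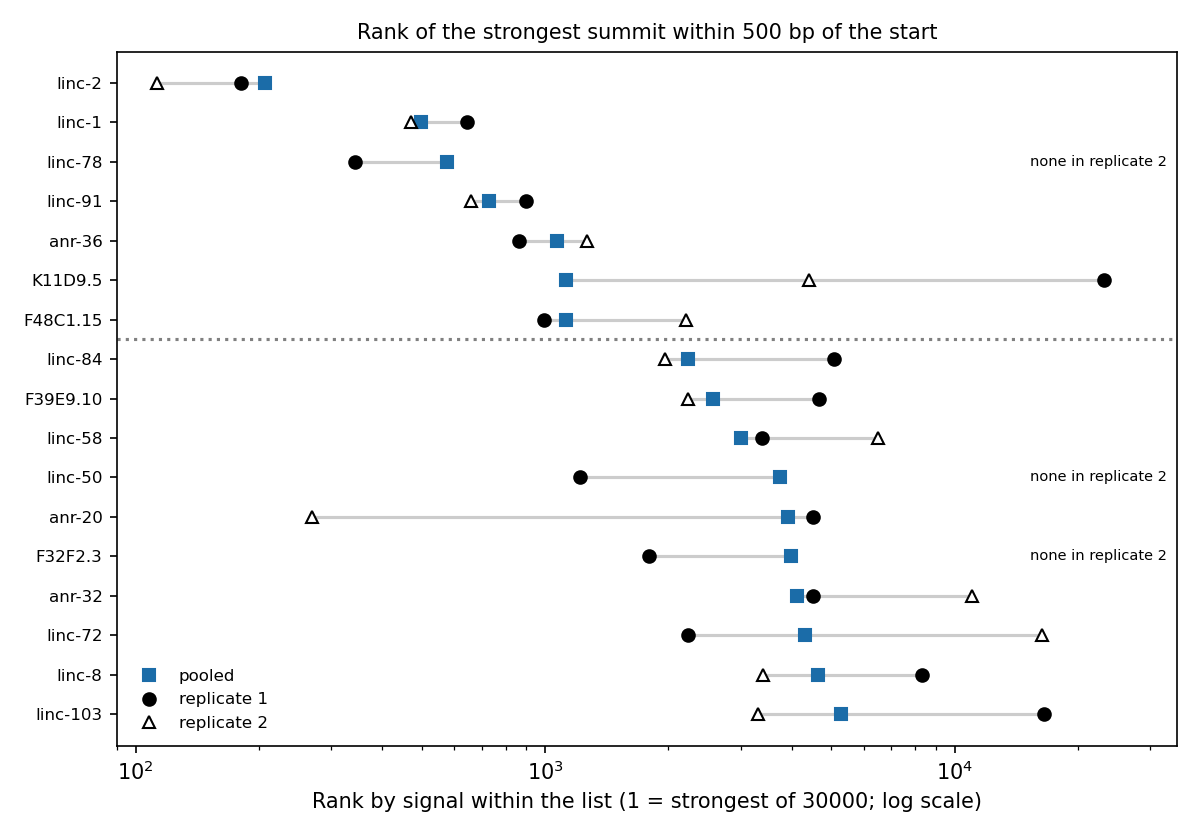
Rank by signal of the strongest AMA-1 summit within 500 bp of the start (horizontal axis, log scale, 1 is the strongest of 30000) for the 7 members in the IDR set (above the dotted line) and the 10 next members whose own start is the nearest; squares are the pooled list, filled circles replicate 1 and open triangles replicate 2. The replicate marks of linc-2, linc-1, linc-91 and anr-36 lie at rank 1266 or better, at linc-2 and anr-36 from different peaks in the replicates, whereas linc-78, linc-50 and F32F2.3 have no mark for replicate 2.

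Below the IDR set, the 10 members of highest pooled signal whose own start was nearest ran from linc-84 at rank 2236 to linc-103 at rank 5280. Of these, 5 were clear members: F39E9.10, linc-58, linc-50, linc-8 and linc-103. These genes have no described function in the files used.

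F39E9.10 (WBGene00023036, chrII:3302761-3303750, minus strand, 990 bp) had a signal of 42.8 in the pooled list (rank 2570), 21.5 in replicate 1 (rank 4662) and 22.5 in replicate 2 (rank 2236). The pooled summit was 2 bp upstream of the start of F39E9.10, with the replicate summits 126 bp upstream and 8 bp downstream, and the nearest protein-coding end, that of btb-22, was 3054 bp away. The member linc-8 (WBGene00219707, chrII:2501838-2503802, minus strand, 1965 bp) had a signal of 32.1 in the pooled list (rank 4626), 15.8 in replicate 1 (rank 8313) and 18.6 in replicate 2 (rank 3395), with the summit 13 bp, 13 bp and 40 bp upstream. Both replicates thus placed a summit within 150 bp of each start, with the higher rank in replicate 2.

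The clear member linc-58 (WBGene00219608, chrI:7952885-7953125, plus strand) had a signal of 39.6 in the pooled list (rank 3004), 25.0 in replicate 1 (rank 3392) and 13.2 in replicate 2 (rank 6491), with the summit 350 bp, 350 bp and 302 bp upstream. Both replicates had the summit, 48 bp apart, but it fell in the exon of the ncRNA gene T22C1.14, which starts 113 bp from it.

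For linc-103 (WBGene00219743, chrX:6256778-6258976, plus strand) the signal was 30.0 in the pooled list (rank 5280), 9.83 in replicate 1 (rank 16543) and 18.9 in replicate 2 (rank 3318). The linc-103 summit was 54 bp upstream in the pooled list and 52 bp upstream in replicate 2, and replicate 1 also had a peak 54 bp upstream, of signal 8.22 (rank 20442), besides its strongest 393 bp downstream. For linc-50 (WBGene00219682, chrIV:5582041-5582262, minus strand) the signal was 35.5 in the pooled list (rank 3738) and 38.4 in replicate 1 (rank 1215), with the summit 195 bp and 187 bp upstream. In replicate 2 the nearest summit to linc-50 was 582 bp away at rank 13557. The peak at linc-50 therefore rests on replicate 1.

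The other 5 members of this group lay close to or inside other genes. The member linc-84 had a signal of 45.4 in the pooled list, 20.6 in replicate 1 and 23.7 in replicate 2, with F55H12.7 starting 258 bp from its summit. The antisense member anr-32, in an intron of fos-1 (a transcription factor gene of the Fos family), had 34.0, 21.9 and 9.51. At linc-72 the signals were 33.3, 30.1 and 6.99, with a far stronger IDR summit (signal 125.1, rank 173) 834 bp downstream of its start, in the 3′ UTR of F46C5.1. F32F2.3, whose summit lay in a coding exon of uig-1, had 34.5 in the pooled list and 33.1 in replicate 1, and the nearest summit in replicate 2 was 1418 bp away. At anr-20, in an intron of ppfr-1, the regulatory subunit gene of protein phosphatase 4, the signals were 34.7, 21.9 and 49.2. Its rank of 270 in replicate 2 belongs to a summit 493 bp upstream, at the edge of the window, beside a pooled IDR summit 560 bp upstream.

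The limit of 500 bp divided strong peaks. Just inside it were K11D9.5 at 493 bp (rank 1122) and the downstream summit of linc-2 at 477 bp (rank 408), and just outside it were IDR summits at anr-43 (510 bp, rank 361), linc-108 (526 bp, rank 75), K07C10.8 (544 bp, rank 77), linc-48 (552 bp, rank 104) and anr-20 (560 bp, rank 157). In all, 11 members had an IDR summit over 500 and up to 1000 bp from the start, a count not made over all genes. At 3 of the 5 a protein-coding start was nearer to the summit than the member's own: anr-43, with F17C11.4 starting 207 bp from the summit, linc-108, with acs-2 (an acyl-CoA synthetase gene) at 443 bp, and linc-48, with osm-11 (which encodes a secreted Notch co-ligand) at 247 bp. K07C10.8 is a clear member, and its IDR summit of signal 171.5 lay in its intron, over exons of the snoRNA gene K07C10.2 and the ncRNA gene K07C10.6.

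The RNA lep-5 (WBGene00010424, chrX:12652591-12653520, minus strand), a clear member, had a summit at the start in 1 of the samples. Replicate 1 held a summit 230 bp upstream of lep-5 with a signal of 19.5 (rank 5661). Replicate 2 had none nearer than 10296 bp, and the nearest pooled summit was 1679 bp away at rank 28832. The other long-studied non-coding RNA genes tts-1 and rncs-1 carry the biotype ncRNA and are not members.

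Support from both replicates was found for 54 members, or 18.4%, against 14.5% of all genes and 21.6% of protein-coding genes. A further 27 had a summit in replicate 1 only and 19 in replicate 2 only, and the pooled list held 54, 21 and 6 of these groups. Of the members with a summit in either replicate, 54.0% had it in both, against 56.3% of the 7646 such protein-coding genes. The strongest summits of both replicates were within 100 bp of each other at 22 of the 54 members (40.7%), against 55.8% of protein-coding genes. They were a median of 122.5 bp and at most 780 bp apart.

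Over these 54 members the rank percentiles of the replicates had a Pearson correlation of 0.378 and a Spearman correlation of 0.468, given as a description across genes that share the same libraries; over 4307 protein-coding genes the values were 0.387 and 0.487. The percentile was higher in replicate 2 for 35 members and in replicate 1 for 19. This count was not made over other genes. The median rank of protein-coding genes with a summit was likewise better in replicate 2 (7328) than in replicate 1 (9081). The median absolute difference of percentiles was 19.7 points for members, against 14.7 for protein-coding genes. The largest differences between the strongest summits in the window (replicate 1 minus replicate 2) among members of pooled rank up to 10000 were -62.3 at K11D9.5, 47.0 at linc-72, -44.1 at linc-103, 42.9 at linc-80 and -42.8 at anr-1. The K11D9.5 value compares the smaller peaks near its start; at its pooled peak replicate 1 ranked higher (829 against 4061). For linc-80 the signal was 25.1 in replicate 1 and 7.03 in replicate 2, with the end of fasn-1, the fatty acid synthase gene, 87 bp from its pooled summit. For anr-1, antisense to the histone methyltransferase gene set-1, it was 8.16 and 11.9, with T26A5.6 starting 39 bp from its pooled summit.

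Among its strongest 2082 peaks each replicate held 8 members with a summit at the start (2.72%), against 3.19% of all genes and 4.55% of protein-coding genes in replicate 1 and 3.69% and 5.90% in replicate 2. The sets shared 4 members, 50% of each: linc-2, linc-1, linc-91 and anr-36, of which linc-2 and anr-36 entered through different peaks. The same overlap was not counted for all genes or protein-coding genes, so this share has no background beside it. Replicate 1 added linc-78, F48C1.15, linc-50 and F32F2.3, and replicate 2 added anr-20, linc-48, linc-109 and linc-84. At linc-48 the window edge decided this: replicate 1 had a summit of rank 53 at 553 bp upstream, and that of replicate 2 (rank 497) lay at 499 bp.

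**Figure D5:**
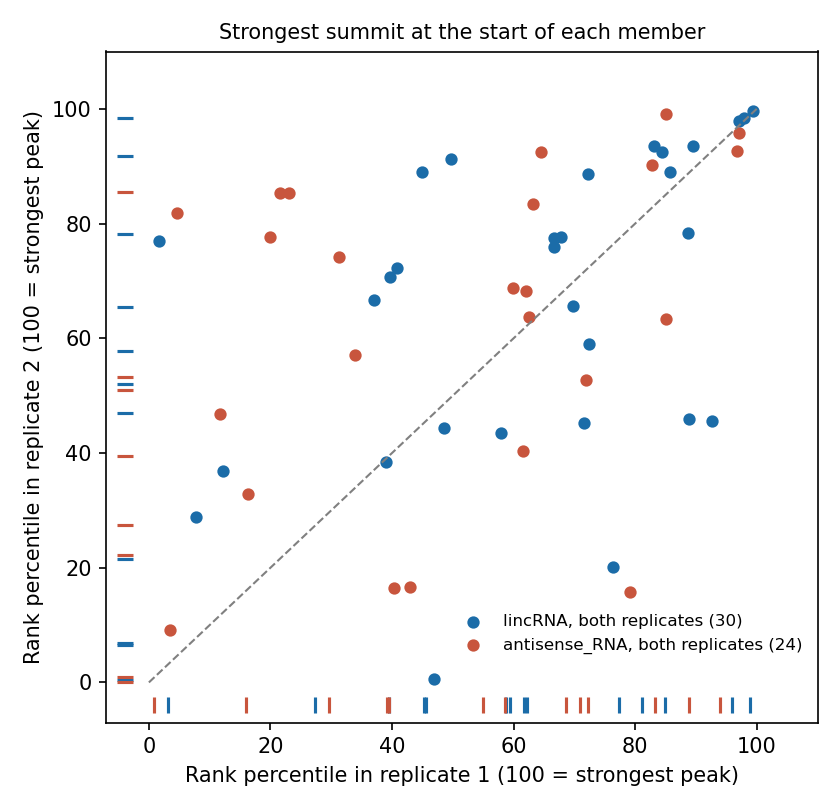
Rank percentile of the strongest AMA-1 summit within 500 bp of the start in replicate 1 (horizontal axis) and replicate 2 (vertical axis; 100 is the strongest peak of the list) for the 54 members with a summit in both, 30 lincRNAs and 24 antisense members; ticks along the axes are the 27 members with a summit in replicate 1 only and the 19 with one in replicate 2 only, and the dashed line marks equal percentiles. The points spread widely about the line, 35 above and 19 below it, a count not made for other genes, and gather near it at the top right.

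Antisense members were set beside the protein-coding genes they lie against. Of the 100, 92 overlapped at least 1 protein-coding gene on the opposite strand, which made 97 pairs with 94 distinct partners. A pooled summit lay at the start of 31 partners (33.0%), with 35.1% in replicate 1 and 36.2% in replicate 2, and an IDR summit at 4 partners (4.26%). The pooled share lay near the 30.7% of all protein-coding genes. In 22 pairs both genes had a pooled summit at the start, in 11 the member alone, in 11 the partner alone and in 53 neither. The starts were within 1000 bp of each other in 22 pairs, and 1 pair, anr-7 and dvc-1, shared a summit. Where both had one, the partner's signal was the higher in 15 pairs and the member's in 7. In the IDR set no pair had both, 2 had the member alone (F48C1.15 and K11D9.5) and 6 the partner alone, among them anr-20 and anr-25 in ppfr-1 (rank 1449 at the ppfr-1 start).

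Polymerase summits were also counted inside members and at their ends. A pooled summit fell inside 68 of 294 members, against 7916 of 46890 genes (16.9%) and 6905 of 19973 protein-coding genes (34.6%). In 26 members there were 2 or more, against 4260 of all genes and 4194 protein-coding genes. These counts depend on length: the median was 719.5 bp for members, 196 bp for all genes and 2027 bp for protein-coding genes. Per kb of gene, members held 0.373 pooled summits and protein-coding genes 0.355. The value was 0.303 for lincRNAs and 0.539 for antisense members in the pooled list, 0.333 and 0.440 in replicate 1, and 0.232 and 0.559 in replicate 2. Antisense members thus held more summits per kb than lincRNAs in all 3 lists, again without a test. At the end (within 500 bp), a pooled summit lay at 88 members (29.9%, against 23.2% of all genes and 33.3% of protein-coding genes).

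In the IDR set, 8 of 294 members held a summit in the body, against 1068 of 46890 genes (2.28%) and 872 of 19973 protein-coding genes (4.37%). At the end, 11 members (3.74%) held one, against 3.76% of all genes. Altogether 17 members had an IDR summit at the start, in the body or at the end, 10 of them without one at the start. This combined count was not made over all genes, so it has no background. The strongest of these 10 were K07C10.8 (rank 77), linc-72 (rank 173), linc-154 (rank 308) and linc-90 (rank 315). At linc-154 the summit lay 20 bp from the end of the member, in the exon of the miRNA gene mir-8196a, with rank 466 in replicate 1 and no summit within 100 bp in replicate 2. At linc-90 it lay 2405 bp inside, in an intron of linc-90 and of gei-4 and 173 bp from a gei-4 start, with rank 1382 in replicate 1 and rank 138 in replicate 2.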

How the data were processed

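AMA-1 ChIP-seq of 2 biological replicates of N2 L4 larvae was analysed from the deposited ce11 peak lists: 1 list per replicate, 1 pooled list and 1 IDR set. The signal of each peak is a score given by the authors, and the summit is an offset from the peak start in the deposited lists; for the aligner, the peak caller, their versions, the use of the control and the IDR threshold, the sources used here give nothing. The ce10 lists were not used. Members came from the Ensembl release 115 annotation, and sequences from the RefSeq WBcel235 genome. A summit was assigned to a gene within 500 bp of its start, the strongest being kept where several fell there, with ranks by score within each list. Named genes were all members with an IDR summit, the 10 next by pooled score whose own start was nearest, the 5 with the largest replicate difference among pooled ranks up to 10000, the 5 just outside the window, and lep-5. Genes named for a summit in the body or at the end, and linc-109, were chosen after their values were seen. Members and lists were chosen with earlier results of these data known. With 1 group there is no contrast and no test: counts are set beside all genes, and shares carry exact Clopper-Pearson 95% intervals. Python 3.11.15, numpy 2.4.6, scipy 1.17.1 and matplotlib 3.10.9 were used; the counting was tested on simulated data. Alternatives were the window, the peak interval, list depth, what counts as nearer, and each replicate left out.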

Additional observations from a re-analysis of the deposited data

How the results depend on the processing

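Of 55 alternative counts, 38 were within 1.5 times the reported count and 17 were not. With a 250 bp window, members with a summit in both replicates fell to 26 and those whose own start was nearest to an IDR summit to 3. With a 1000 bp window, members with an IDR summit numbered 18 and those with the own start nearest 11. Requiring the peak interval itself to cover the start gave 2 members in the IDR set, 40 in the pooled list, 17 in both replicates, 2 and 38 with the own start nearest in the IDR set and pooled list, and 12 clear members. The strongest 15000 peaks gave 49 members in the pooled list, 25 in both replicates, 38 with the own start nearest and 13 clear members. The strongest 1041 IDR peaks gave 4 members and 3 with the own start nearest. Requiring any summit of each replicate at the start to lie within 100 bp of one of the other gave 28. These settings narrow or widen what counts as a summit at the start by construction, and their counts were not made over all genes. Leaving out each replicate in turn, which leaves the other replicate's own list, gave 8 to 8 members in its strongest 2082 peaks, 73 to 81 in the full list, 5 to 5 and 55 to 61 with the own start nearest, and 14 to 20 clear members. Taking the nearest summit in place of the strongest, an alternative chosen after seeing the data, gave 68 members with the own start nearest in the pooled list. Of 74 alternative rank percentiles of named members, 22 moved by more than the tolerance used, the SD between replicates (none where only 1 replicate had a summit, as at linc-78), which is wide for members such as K11D9.5 and linc-72. Thus linc-72 at 99.4 with a 1000 bp window, against 85.6, and K11D9.5 at 85.3 without replicate 1, against 96.3, were within it. No paired analysis was possible because there is 1 group. The lists keep 30000 peaks each, so signal too weak for them was not measured.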

Other observations

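The windows of F39E9.10 and linc-8, both on chromosome II, shared a similar stretch near the start that was noticed after the sequences were seen. It covers 37 bases, of which 32 are identical, from position 2 to position 38 at F39E9.10 and from position -46 to position -10 at linc-8, where the first base of the gene is position 0.
F39E9.10: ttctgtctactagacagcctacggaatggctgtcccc
linc-8: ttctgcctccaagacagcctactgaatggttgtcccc
With the 5 differing bases left free, the stretch matches both of these places by construction, and no other place in the nuclear genome matched. A further match would need all 32 identical bases, and looser copies were not searched for. The longest exact run of the stretch, AGACAGCCTAC (11 bases), occurs 13 times in the nuclear genome. That length is not particular to this pair, since linc-50 and linc-78 also share a run of 11 bases. Among the 294 member windows, the run occurs only in those of F39E9.10 and linc-8. The run was taken from these windows, so its presence in them was fixed in advance. It also occurs in the windows of 1 of 19973 protein-coding genes and 1 of 7764 ncRNA genes. No function of the stretch was tested.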
